A study of Mus musculus with 36 samples.

Results

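Epiregulin (Ereg), amphiregulin (Areg), heparin-binding EGF-like growth factor (Hbegf) and transforming growth factor alpha (Tgfa) are ligands of the epidermal growth factor (EGF) receptor. These 4 genes were taken by name from the 27562 genes of a table of RNA-seq expression values covering 36 libraries of mouse lung macrophages and monocytes. They were chosen as a family with results of these libraries already known, among them the high Ereg and Areg values of resident alveolar macrophages at 4-weeks. The contrasts that rest on those values are therefore described here with no test.

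All 4 ligands are made as membrane-anchored precursors that proteases of the ADAM family, above all ADAM17, cut from the cell surface. The released ligands bind EGFR, and Ereg and Hbegf also bind ERBB4, on the same cell or on neighbours such as epithelium, where they drive growth and repair through the MAPK cascade. Macrophages are a known source of Ereg, Areg and Hbegf during inflammation, and the Ereg and Areg genes are known to be transcribed quickly after stimulation.

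The libraries came from male lung shielded chimeras. Young adult C57BL/6J hosts carrying the CD45.2 allele were lethally irradiated with the chest behind lead, given busulfan and transplanted with CD45.1 bone marrow of the same age and sex, a preparation shared by every group. The mice then breathed filtered air (FA) or concentrated ambient fine particles (PM2.5) for 4 or 32 weeks. Lung alveolar macrophages (AΦ, CD64+, CD11c high, CD11b low) and monocytes (Ly6G-, MHC II-, CD64 low, CD11b high) were sorted, and the 12 groups held 3 libraries each. AΦ of 4-weeks mice were tissue-resident (TR-AΦ, CD45.2). At 32-weeks both TR-AΦ and bone marrow-derived BM-AΦ (CD45.1) were sequenced. The 4-weeks monocytes were CD45.2 cells. The 32-weeks monocyte libraries carry the numbers 1 and 2, and by the key of the macrophage libraries monocytes 1 were read as CD45.1 and monocytes 2 as CD45.2. Per the study's methods, nearly all circulating monocytes of the chimeras used were of donor origin. Mice of the 4-weeks and 32-weeks groups also differed in age and were sorted at different times, so exposure length, age and handling cannot be told apart. Each library is a sorted bulk sample, in which fewer cells of a type and less RNA per cell cannot be told apart.

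Levels are FPKM, fragment counts scaled to transcript length and library size, which allows levels of different genes to be compared per length. The sum of FPKM per library ranged from 1839577 to 3339020, and no pair of libraries was identical. The 9 measured alveolar macrophage markers summed to 5927 to 13373 FPKM in the 18 AΦ libraries and to 262 to 1512 FPKM in the 18 monocyte libraries, while the 8 monocyte markers summed to 3.88 to 125 FPKM in AΦ and to 975 to 2853 FPKM in monocytes. The replicate 2 libraries of 4-weeks stood apart. In TR-AΦ their monocyte marker sums were 125 FPKM in FA and 115 FPKM in PM2.5, against 11.2 to 16.0 FPKM in the other 4 libraries, and their neutrophil marker sums were 22.1 and 51.1 FPKM against 0.475 to 5.07 FPKM. The replicate 2 libraries of the 4 AΦ groups of 32-weeks had red cell marker sums of 39.4 to 57.3 FPKM, against 0 to 2.38 FPKM in the other 8. In 4-weeks monocytes the replicate 2 libraries had neutrophil marker sums of 328 and 1030 FPKM against 0.813 to 43.4 FPKM. The values that rest on these libraries are therefore also given without replicate 2 of every group, an alternative chosen after the data were seen.

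Ereg (ENSMUSG00000029377.5) and Areg (ENSMUSG00000029378.5) lie side by side on mouse chromosome 5, build GRCm38 (mm10). In the GENCODE annotation Ereg spans chr5:91074622-91093646 and Areg spans chr5:91139599-91148432, both on the plus strand, and 45.9 kb separate them. Other EGF family ligands flank the pair, with Epgn (epigen) 39.4 kb before Ereg and Btc (betacellulin) 208.8 kb beyond Areg on the minus strand. Tgfa (ENSMUSG00000029999.14) is at chr6:86195223-86275719 on the plus strand. An antisense gene, Gm19610, overlaps the first 152 bases of Ereg. Whether fragments were counted by strand was not given in the sources used here, so reads of that overlap cannot be assigned to either gene.

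The 250 bases upstream of the Areg start (RefSeq, GRCm38.p6, chr5:91139349-91139598, plus strand) are shown because the Areg level was lower at 32-weeks in both cell types. The promoter tables held Areg and Tgfa among the 4 ligands. Capitals mark matches to the cyclic AMP response element half-site TGACG on either strand and to the TATA box TATAAA.
Areg: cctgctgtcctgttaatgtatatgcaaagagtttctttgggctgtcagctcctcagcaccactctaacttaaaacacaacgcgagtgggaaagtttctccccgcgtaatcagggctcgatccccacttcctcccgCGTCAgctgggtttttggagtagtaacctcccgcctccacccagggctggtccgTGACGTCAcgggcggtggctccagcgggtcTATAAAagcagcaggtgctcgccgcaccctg
The half-site matched 3 times. The matches at -61 and -58 overlap and together spell the full palindrome TGACGTCA from -61 to -54, and the third lies at -115. The TATA box match ran from -31 to -26, counted from the first transcribed base. Among 32851 promoter windows of the same length, 17.8% held the half-site, 1.55% the full palindrome and 12.4% the TATA box. Of the other motifs searched on both strands, TGANTCA (AP-1, in 6.75% of windows), GGGANNTCC (a kappa B core, 3.59%) and CACGTG (an E-box, 6.02%) were not in this window. The full palindrome was added to the search after the half-site matches were seen. The Tgfa window held none of these motifs. A match is a description of letters and not a measured binding site.

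Ereg was a macrophage transcript with its highest levels in 4-weeks TR-AΦ. In FA mice the 3 TR-AΦ libraries of 4-weeks had 118, 110 and 290 FPKM (173 ± 102 FPKM, SD, n = 3), and in PM2.5 mice they had 107, 120 and 399 FPKM (209 ± 165, SD, n = 3). The 2 highest of the 36 libraries were the replicate 2 libraries of these groups, the ones with added monocyte and neutrophil markers. The part of other cells in these values was not tested. At 32-weeks TR-AΦ had 9.93, 4.11 and 22.4 FPKM in FA (12.2 ± 9.36, SD, n = 3) and 4.19, 11.1 and 7.39 FPKM in PM2.5 (7.55 ± 3.44, SD, n = 3). BM-AΦ of 32-weeks stood at 16.2, 6.57 and 17.4 FPKM under FA, against 6.08, 10.8 and 10.1 FPKM under PM2.5. The 12 AΦ libraries of 32-weeks overlapped one another and all lay under the 6 of 4-weeks. Of the 18 monocyte libraries, 14 were listed at 0 and 4 at 0.242, 0.266, 0.528 and 0.246 FPKM, each in a different group. In the order of group means, the 2 TR-AΦ groups of 4-weeks came first and did not differ beyond their spread, the 4 AΦ groups of 32-weeks followed with overlapping ranges, and the 6 monocyte groups were last.

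**Figure D1:**
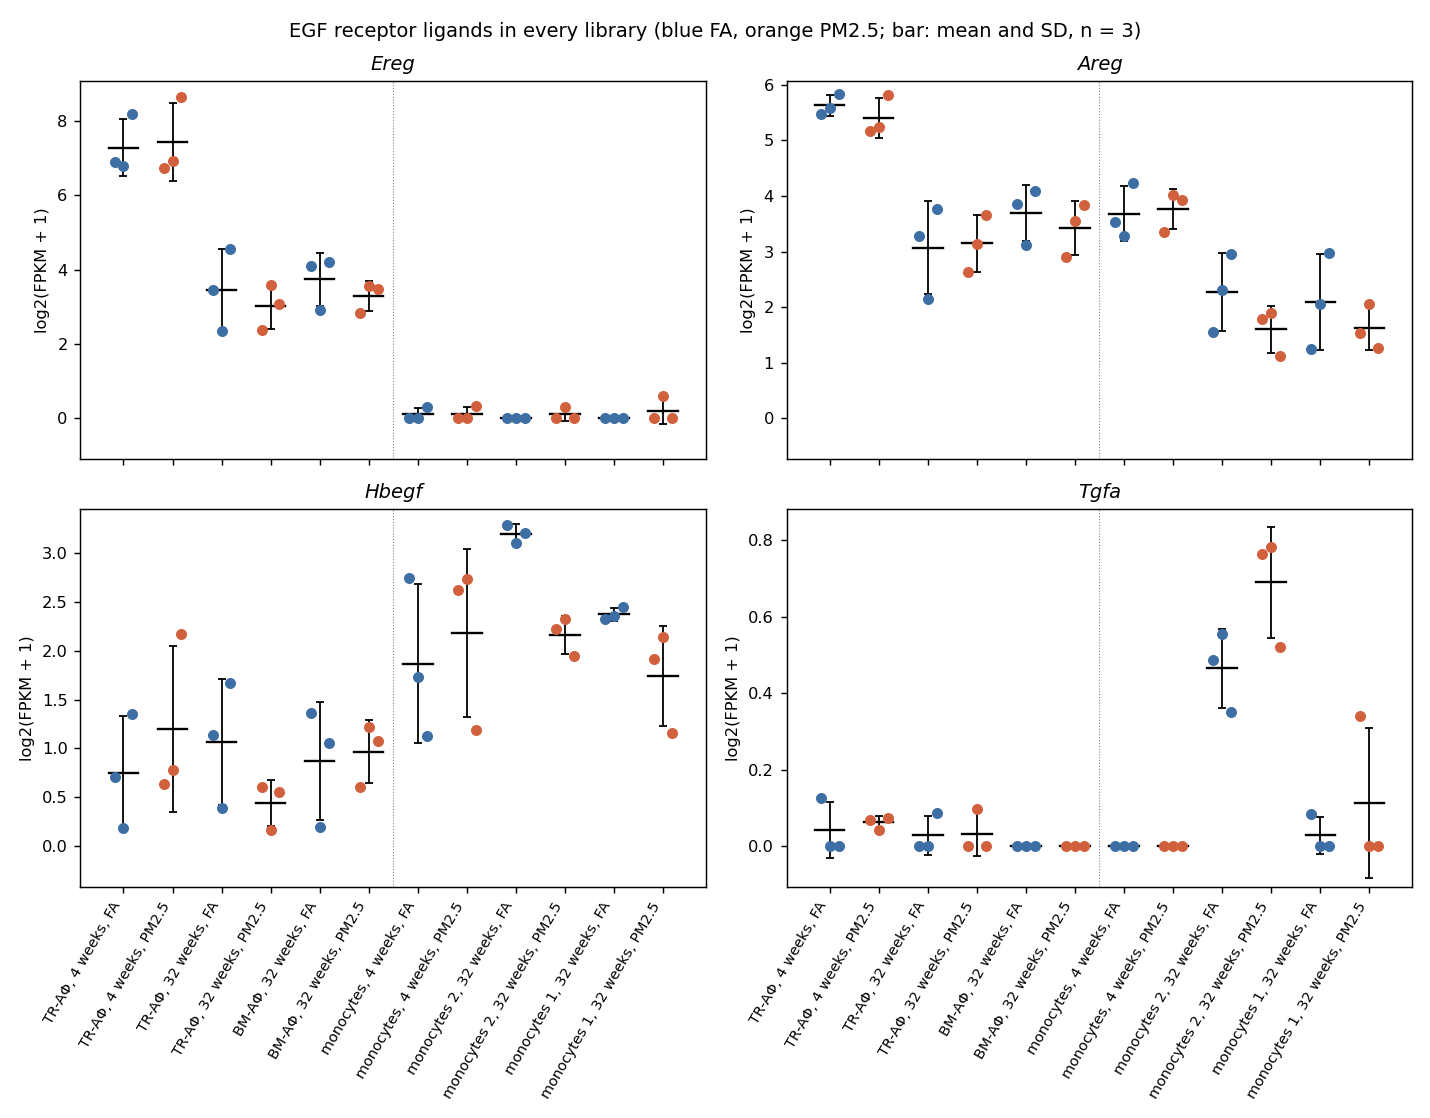
Expression of the 4 ligands in each of 36 libraries as log2(FPKM + 1), by group, with FA in blue, PM2.5 in orange and the mean and SD (n = 3) as black bars. Ereg was highest in 4-weeks TR-AΦ and at or near 0 in monocytes, Areg was present in every library, Hbegf was higher in most monocyte libraries, and Tgfa was above 0.3 FPKM in 5 of the 6 libraries of monocytes 2.

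Areg followed Ereg among AΦ but was also found in monocytes. In 4-weeks TR-AΦ it stood at 43.5, 47.0 and 56.0 FPKM in FA (48.8 ± 6.47, SD, n = 3) and at 34.9, 36.7 and 55.1 FPKM in PM2.5 (42.3 ± 11.2, SD, n = 3). TR-AΦ of 32-weeks had 8.75, 3.41 and 12.7 FPKM in FA (8.27 ± 4.64, SD, n = 3) and 5.22, 7.85 and 11.6 FPKM in PM2.5 (8.23 ± 3.21, SD, n = 3). BM-AΦ stood at 13.5, 7.73 and 16.0 FPKM under FA, against 6.46, 10.7 and 13.3 FPKM under PM2.5. As for Ereg, the 32-weeks AΦ libraries overlapped one another and none reached the lowest 4-weeks TR-AΦ library. Monocytes of 4-weeks, at 10.52, 8.75 and 17.9 FPKM under FA against 9.21, 15.2 and 14.2 FPKM under PM2.5, stood within the range of 32-weeks AΦ or just above it. The order of group means thus placed 4-weeks TR-AΦ first, the 4-weeks monocytes next to the 32-weeks AΦ groups, with PM2.5 above all of them and FA among them, and the 4 groups of 32-weeks monocytes last, and only the step after the 4-weeks TR-AΦ groups separated neighbours whose ranges did not overlap.

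Between time points in TR-AΦ, the fitted log2 change of Ereg (32-weeks against 4-weeks, on log2(FPKM + 1)) was -3.84 ± 0.61 (SE) in FA and -4.43 ± 0.61 in PM2.5, or ratios of mean FPKM of 14.2 and 27.6 in favour of 4-weeks. For Areg the changes were -2.57 ± 0.40 in FA and -2.26 ± 0.40 in PM2.5, or ratios of 5.90 and 5.14. These contrasts took part in the choice of the genes and carry no p. As background, limma called 0.782% of 12665 genes between the time points in FA and 1.05% in PM2.5 at an adjusted p under 0.05, and the ranges of 4-weeks and 32-weeks libraries did not overlap for 15.6% and 18.3% of genes. Without replicate 2 of every group the log2 changes were -3.94 and -3.85 for Ereg and -2.82 and -2.31 for Areg. Hbegf and Tgfa were under the filter of a mean of 1 FPKM in AΦ. Other marker sums moved with these levels. Monocyte marker sums were 11.2 to 125 FPKM in 4-weeks TR-AΦ and 3.88 to 12.5 FPKM at 32-weeks, with a median log2 change of the 6 genes tested of -1.38 in FA and -1.12 in PM2.5 and 0 of them called in limma. B cell marker sums were 1.01 to 5.67 FPKM and 0 to 0.768 FPKM, without overlap, and epithelial sums were 65.1 to 96.9 FPKM and 68.2 to 152 FPKM. The part of other cells in the change was not tested.

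**Figure D2:**
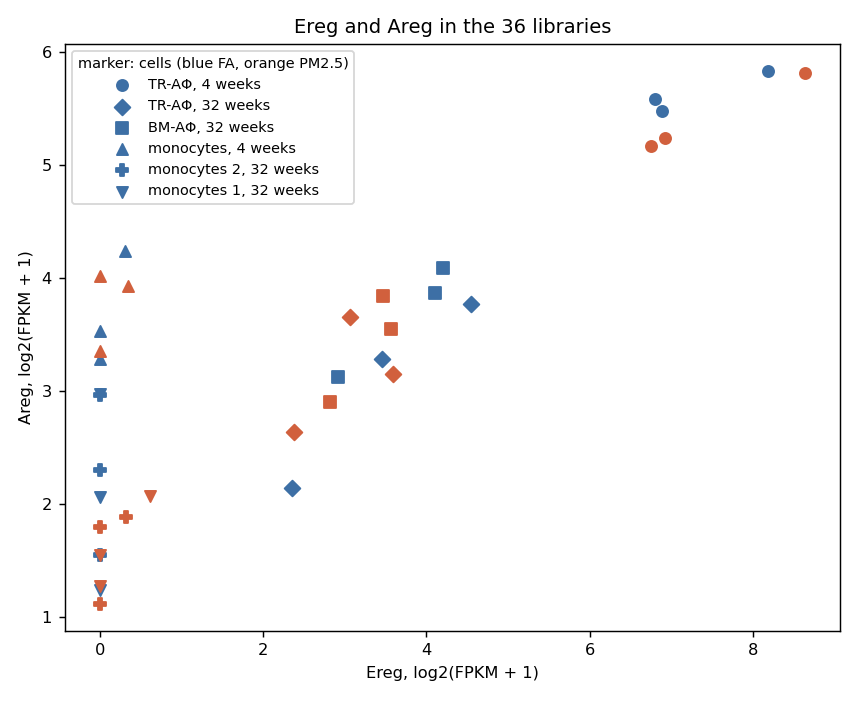
Areg against Ereg, both as log2(FPKM + 1), in the 36 libraries, with the cells by marker shape, FA in blue and PM2.5 in orange. AΦ libraries lie along a rising band with 4-weeks TR-AΦ at its upper end, whereas monocyte libraries spread along the Areg axis with Ereg at or near 0.

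The ratio of the pair also differed between the time points, a description that rests on the 4-weeks values used to choose the genes. The per-library ratio of Ereg to Areg FPKM was 2.35 to 7.23 (median 3.17) in 4-weeks TR-AΦ and 0.636 to 1.77 (median 1.05) in the 12 AΦ libraries of 32-weeks, so those ranges did not overlap. The ratio of 7.23 was that of replicate 2 of PM2.5, which had added monocyte and neutrophil markers. The ratios were not summarized without replicate 2, and no share over other pairs of genes was computed. Across the 18 AΦ libraries Pearson's r of the log2 values of Ereg and Areg was 0.97, and it was 0.82 within the 6 TR-AΦ libraries of 4-weeks and 0.84 within the 12 AΦ libraries of 32-weeks. The points share cell type and, in part, mouse and time point, so these values are descriptive.

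Hbegf (ENSMUSG00000024486.5, chr18:36504927-36515805, minus strand), also known as the diphtheria toxin receptor, had the opposite cell-type pattern at low levels. The 18 AΦ libraries held 0.125 to 3.51 FPKM (median 0.677), and the highest was replicate 2 of 4-weeks PM2.5. Monocytes of 4-weeks stood at 5.68, 2.32 and 1.19 FPKM under FA, against 5.16, 5.62 and 1.28 FPKM under PM2.5, with replicate 2 the lowest of each group. Monocytes 1 of 32-weeks stood at 3.99, 4.09 and 4.44 FPKM under FA, against 2.78, 3.41 and 1.24 FPKM under PM2.5. Monocytes 2 had 8.75, 7.54 and 8.19 FPKM in FA (8.16 ± 0.61, SD, n = 3) and 3.65, 4.01 and 2.85 FPKM in PM2.5 (3.50 ± 0.59, SD, n = 3). FA monocytes 2 led the order of group means, and their range lay wholly above that of the next group, FA monocytes 1. Every later pair of neighbours in that order overlapped.

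Tgfa was the least abundant of the 4 ligands and was above 0 in all 6 libraries of a single population. Monocytes 2 had 0.401, 0.470 and 0.277 FPKM in FA (0.383 ± 0.098, SD, n = 3) and 0.699, 0.720 and 0.436 FPKM in PM2.5 (0.618 ± 0.158, SD, n = 3). Among the other 30 libraries 22 were listed at 0 and none passed 0.266 FPKM. The 6 monocyte libraries of 4-weeks and the 6 BM-AΦ libraries were all listed at 0. Monocytes 1 were listed at 0 in 4 libraries and had 0.0610 and 0.266 FPKM in the others. Monocytes 2 thus lay above monocytes 1 with no overlap. No fragment counts were used, so no counting interval stands beside these low values.

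No ligand passed the threshold between PM2.5 and FA in any of the 6 comparisons. Of 12 tests of members that passed the filter, 0 had an adjusted p under 0.05 in limma and 1 had an unadjusted p under 0.05. In TR-AΦ at 4-weeks the log2 differences (PM2.5 against FA) were 0.15 ± 0.61 (SE) for Ereg and -0.23 ± 0.40 for Areg, and at 32-weeks they were -0.44 ± 0.61 and 0.08 ± 0.40. In BM-AΦ they were -0.46 ± 0.61 and -0.26 ± 0.40. All 6 adjusted p-values were 1 in limma, where 0.0079%, 0% and 0.0158% of 12665 genes were called in these 3 comparisons. The exposure groups overlapped for Ereg and Areg in all 3, whereas they did not overlap for 5.82%, 5.98% and 6.44% of genes. The difference of the PM2.5 effect between 32-weeks and 4-weeks in TR-AΦ, tested as an interaction, was -0.59 for Ereg and 0.31 for Areg, each with an adjusted p of 1 in limma (0.0079% of genes called). The intervals are wide. An SE of 0.61 leaves room for a change of more than 1 log2 unit in Ereg, either way at 4-weeks and downward at 32-weeks.

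In monocytes the Hbegf values of PM2.5 mice lay below those of FA mice at 32-weeks without overlap. In monocytes 2 the log2 difference was -1.03 ± 0.41 (SE), with an unadjusted p of 0.0253 and an adjusted p of 1 in limma (0% of 12856 genes called). In monocytes 1 it was -0.63 ± 0.41, with an adjusted p of 0.989 in limma (0% called). The exact two-sided permutation p was 0.1 in each, the smallest that 3 against 3 libraries can give. The groups did not overlap for 6.39% of all genes in monocytes 2 and for 8.89% in monocytes 1. At 4-weeks the monocytes of the 2 exposures overlapped in Hbegf, with a log2 difference of 0.31 ± 0.41 and an adjusted p of 1 in limma (0.00778% called, and no overlap for 6.57% of genes). Areg differed by 0.08 ± 0.44 in 4-weeks monocytes, -0.47 ± 0.44 in monocytes 1 and -0.67 ± 0.44 in monocytes 2, and the groups overlapped in all 3. Without replicate 2 of every group the 32-weeks differences were -0.31 for Hbegf and 0.15 for Areg in monocytes 1, the latter turned in sign, and -0.92 for Hbegf and -0.083 for Areg in monocytes 2. Tgfa in monocytes 2 had overlapping ranges and an exact two-sided permutation p of 0.2.

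Resident and marrow-derived AΦ of 32-weeks overlapped in Ereg and Areg, and neither ligand passed the threshold between them. Against TR-AΦ, BM-AΦ had a log2 difference of 0.28 ± 0.43 for Ereg and 0.45 ± 0.28 for Areg, with 6 libraries a side. The libraries were treated as independent, though those of both origins likely come from the same mice. The exact two-sided permutation p was 0.511 for Ereg and 0.180 for Areg, and 0 of the 2 ligands tested was called in limma (0.316% of 12665 genes called, and no overlap for 1.37%), with neither under an unadjusted p of 0.05. Monocyte marker sums were 11.6 to 61.1 FPKM in BM-AΦ and 3.88 to 12.5 FPKM in TR-AΦ, and their part in these values was not tested.

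Areg fell in monocytes between the time points. The 6 libraries of monocytes 2 at 32-weeks ranged from 1.16 to 6.79 FPKM (median 2.59), and the 6 monocyte libraries of 4-weeks from 8.75 to 17.9 FPKM (median 12.4), with no overlap. The log2 change was -1.79 ± 0.31 (SE), lower in 6 of 6 libraries, with an adjusted p of 0.00166 in limma, where 14.9% of 12856 genes were called. Of all genes 7.83% were called lower at 32-weeks, and 7.72% did not overlap. The exact two-sided permutation p was 0.00216, the smallest that 6 against 6 libraries can give. Without replicate 2 of every group the change was -1.66 with an adjusted p of 0.0123 in limma. Neutrophil marker sums were 0.813 to 1030 FPKM at 4-weeks and 1.96 to 8.27 FPKM at 32-weeks, and those of basophils and mast cells, known makers of Areg elsewhere, 0.272 to 10.0 FPKM and 0.380 to 1.58 FPKM. AΦ marker sums were 428 to 780 FPKM at 4-weeks and 309 to 1512 FPKM in monocytes 2, where limma called Pparg, Fabp4 and Ear2 lower and Plet1 and Siglecf higher. Of the endothelial markers Pecam1 was called lower and Cdh5 higher. The part of other cells in the Areg change was not tested. Monocytes 1 of 32-weeks were at 1.37 to 6.83 FPKM, a log2 difference from monocytes 2 of -0.08 ± 0.31 with an adjusted p of 0.985 in limma (0.669% of genes called, and no overlap for 1.18%).

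Hbegf in monocytes 2 stood at a log2 change of 0.65 ± 0.29 against 4-weeks monocytes, with an adjusted p of 0.162 in limma and an exact two-sided permutation p of 0.130. Leaving out replicate 0 of the 4-weeks FA monocytes gave 0.87 with an adjusted p of 0.0458 in limma, and leaving out replicate 2 of every group gave 0.28. Monocytes 1 and monocytes 2 differed by -0.62 ± 0.29 in Hbegf, with an adjusted p of 0.525 in limma and an exact two-sided permutation p of 0.0823.

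Tgfa separated monocytes 2 both from monocytes 1 and from 4-weeks monocytes. It was under the filter, so its log2 differences come from a fit of all 27562 genes without one and are given with no limma p. There the log2 difference of monocytes 1 from monocytes 2 was -0.51, and the exact two-sided permutation p was 0.00216, the smallest possible. The ranges nearly touched, at 0.266 FPKM in a PM2.5 library of monocytes 1 and 0.277 FPKM in an FA library of monocytes 2. In that fit 0.493% of genes were called, and 0.911% did not overlap. Against 4-weeks monocytes, all listed at 0, the log2 difference of monocytes 2 was 0.58, in a fit that called 7.19% of genes, with no overlap for 4.55%. This size depends on the pseudocount. Libraries listed at 0 add no spread to the shared estimate, so the SEs and adjusted p-values of Tgfa would look firmer than such low values allow and are left out. Some marker genes, picked after their values were seen, also had higher means in monocytes 2, and of these only Plet1 was called. Plet1, an AΦ marker, had a mean of 16.7 FPKM in monocytes 2 and 2.42 FPKM in monocytes 1 (adjusted p = 0.0240 in limma), Siglecf had 3.27 and 0.559 FPKM (adjusted p = 0.126) and Cdh5, a marker of endothelium, 3.83 and 1.55 FPKM (adjusted p = 0.199). The lists as a whole did not share this direction. Of 7 AΦ markers tested 1 was called, with log2 differences (monocytes 1 against monocytes 2) of a median of -0.01 and a highest of 0.13. Of the 2 endothelial markers tested 0 were called, with -0.91 for Cdh5 and 0.02 for Pecam1. The AΦ marker sum as a whole was 309 to 1512 FPKM in monocytes 2 and 262 to 852 FPKM in monocytes 1. The part of other cells in the Tgfa of monocytes 2 was not tested.

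**Figure D3:**
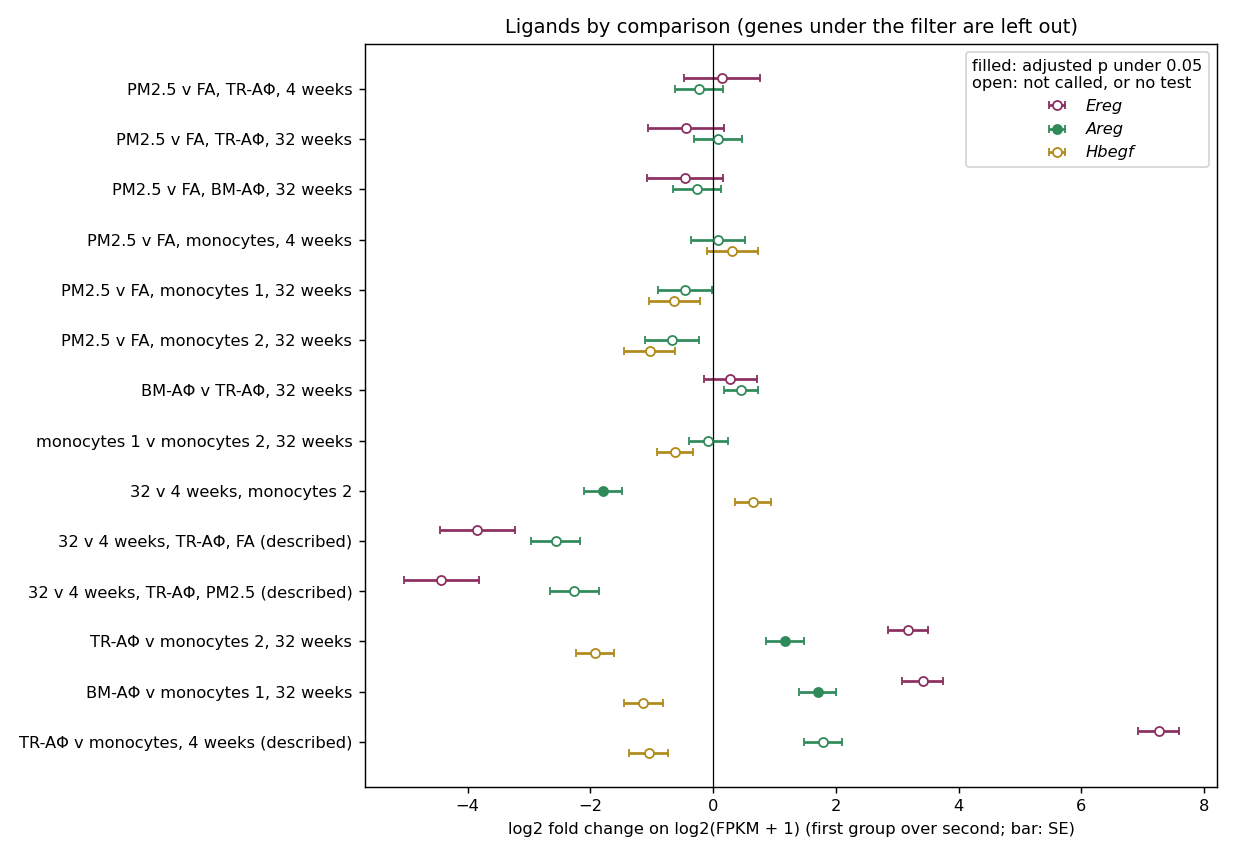
Log2 fold changes of Ereg, Areg and Hbegf on log2(FPKM + 1), first group over second, with SE bars; filled points had an adjusted p under 0.05 in limma, and open points did not or, as Ereg and Hbegf between cell types, carry no test. The 6 PM2.5 comparisons hold no filled point, Areg is filled for monocytes between time points, and for AΦ against monocytes of 32-weeks; Tgfa was under the filter throughout.

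Areg was higher in AΦ than in monocytes of the same CD45 allele at 32-weeks, by 1.17 ± 0.30 (SE) on the log2 scale for TR-AΦ over monocytes 2 (adjusted p = 0.00225 in limma) and by 1.70 ± 0.30 for BM-AΦ over monocytes 1 (adjusted p = 3.57e-05). The exact two-sided permutation p was 0.0130 and 0.00433, and the ranges overlapped in both. Limma called 47.3% and 50.9% of 13307 genes in these comparisons, and 26.9% and 30.8% of genes did not overlap. Ereg and Hbegf passed the filter of this fit through the cell type in which they are high, so their differences are given with no test. Ereg was 3.18 higher on the log2 scale in TR-AΦ than in monocytes 2 and 3.41 higher in BM-AΦ than in monocytes 1, sizes that depend on the pseudocount, since 10 of those 12 monocyte libraries were listed at 0. The log2 difference of Hbegf was -1.92 and -1.14, with lower values in AΦ. At 4-weeks, where the genes were chosen on the TR-AΦ libraries, the log2 differences were 7.26 for Ereg, 1.79 for Areg and -1.05 for Hbegf, given with no test beside a background of 48.2% of genes called and 29.8% without overlap. Without replicate 2 of every group they were 6.84, 1.82 and -1.88.

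The other ligands of the EGF family were mostly at or near 0, with neuregulins as the exception. Nrg4, a ligand of ERBB4, had 7.40 to 34.8 FPKM (median 18.5) in AΦ and at most 3.99 FPKM in monocytes, where 6 of 18 libraries were listed at 0. Its log2 difference was 3.33 between TR-AΦ and monocytes 2 and 3.74 between BM-AΦ and monocytes 1, given with no test since it passed the filter through AΦ. Its time course was not called. Between 4-weeks and 32-weeks in TR-AΦ it changed by -0.96 ± 0.40 in FA and -0.36 ± 0.40 in PM2.5 on the log2 scale, with adjusted p-values of 0.344 and 0.722 in limma. Nrg1, which binds ERBB3 and ERBB4, went the other way between cell types, at 0.0896 to 7.54 FPKM in monocytes and no more than 0.515 FPKM in AΦ. Nrg2 reached 2.06 FPKM in monocytes and 0.567 FPKM in AΦ. Egf, Btc, Epgn and Nrg3 had medians of 0 to 0.0599 FPKM over the 36 libraries, and Epgn and Btc, the chromosome 5 neighbours of Ereg and Areg, were listed at 0 in 28 and 33 of them.

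The receptors were scarce in every sorted population. Egfr, the receptor common to the 4 ligands, was at 0 to 0.307 FPKM in the 30 libraries other than monocytes 2. Monocytes 2 stood at 2.28, 1.19 and 1.14 FPKM under FA, against 0.514, 1.26 and 0.601 FPKM under PM2.5, all above every other library, and their exact two-sided permutation p against monocytes 1 and against 4-weeks monocytes was 0.00216, the smallest possible, where 0.911% and 4.55% of all genes did not overlap. Monocytes 2 were thus the population in which both Tgfa and Egfr stood above the others. As for Tgfa, the part of other cells in the Egfr of monocytes 2 was not tested. Erbb2, the partner that binds no ligand, ranged from 0 to 1.09 FPKM, Erbb3 from 0.151 to 1.93 FPKM, and Erbb4 was listed at 0 in 34 of 36 libraries and at most 0.0227 FPKM.

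**Figure D4:**
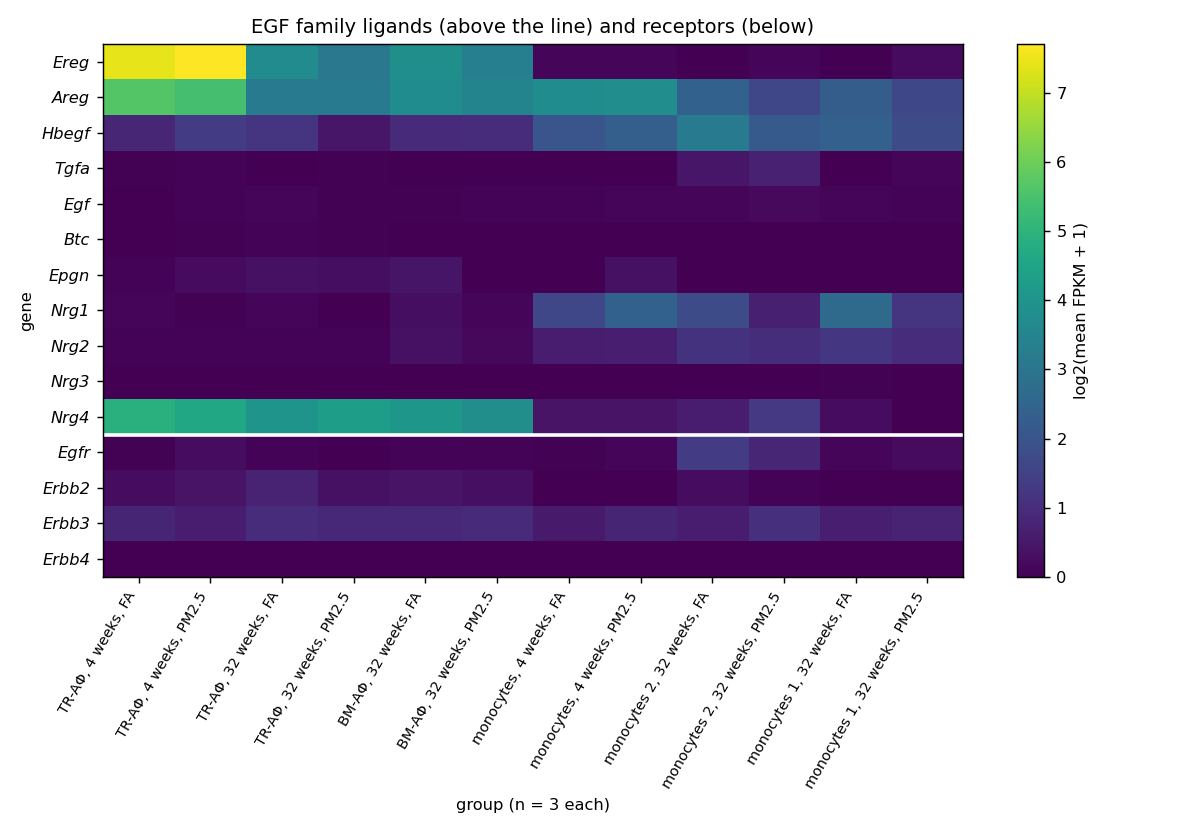
Mean level, as log2(mean FPKM + 1), of 11 EGF family ligands (above the white line) and 4 receptors (below it) in the 12 groups of 3 libraries. Ereg and Nrg4 mark AΦ, whereas Areg was highest in 4-weeks TR-AΦ and also present in every monocyte group. Hbegf and Nrg1 were higher in monocytes, and Egfr and Tgfa stood out in monocytes 2.

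Of the listed genes that free and answer the ligands, those above the filter in TR-AΦ were not called between the time points. Over all 12665 genes, 0.782% were called in FA and 1.05% in PM2.5. Counts of 0 in lists this short are near that share and say nothing about these genes in particular. Of 9 genes for release of the ligands, limma called 0 between 4-weeks and 32-weeks in TR-AΦ in either exposure, with medians of 0.01 in FA and -0.01 in PM2.5 beside medians over all genes of 0.01 and 0.03. Adam17, which encodes the main sheddase, had a mean of 30.9 FPKM at 4-weeks and 25.2 FPKM at 32-weeks in FA TR-AΦ (adjusted p = 0.676 in limma), and Adam9 had 35.2 and 41.0 FPKM (adjusted p = 0.653). Adam10, a relative that also cuts EGF family precursors, had 26.1 and 33.2 FPKM (adjusted p = 0.620).

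Adaptors and brakes at the receptor were called in 0 of 9 tested and MAPK feedback genes in 0 of 6, in both exposures. Beside the 0.782% and 1.05% of all genes called, these counts are near the background as well. A further 3 MAPK feedback genes and the 4 receptors were under the filter. Grb2, the adaptor that links the receptor to Ras, had 59.0 and 59.9 FPKM in FA TR-AΦ of 4-weeks and 32-weeks. Errfi1, which encodes the feedback inhibitor Mig6, had means of 16.1 and 14.1 FPKM under FA, against 23.2 and 9.70 FPKM under PM2.5 (adjusted p = 0.833 and 0.139 in limma). Dusp1, a MAPK phosphatase, had 526 and 707 FPKM in FA. Among 8 regulators of ligand RNA 0 were called, and Zfp36, which encodes tristetraprolin, a protein that hastens decay of AU-rich messenger RNAs, had means of 1113 and 576 FPKM under FA (adjusted p = 0.129 in limma), against 989 and 458 FPKM under PM2.5 (adjusted p = 0.0665).

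Of 14 inflammatory genes, limma called 7 lower and 0 higher in FA and 7 lower and 0 higher in PM2.5, with list medians of -2.35 and -2.54 on the log2 scale, where 0.632% and 0.782% of all genes were called lower. The counts of lower genes were 10 in FA and 5 in PM2.5 without replicate 2 of every group. The called genes were Tnf, Cxcl1, Cxcl2, Icam1, Nfkbia, Nfkbiz and Tnfaip3 in both. Cxcl2, a neutrophil chemokine, had a mean of 803 FPKM at 4-weeks and 189 FPKM at 32-weeks in FA (log2 change -2.28 ± 0.43, adjusted p = 0.0215 in limma), and Nfkbia, the NF-kappa B inhibitor, had 683 and 239 FPKM (-1.54 ± 0.22, adjusted p = 0.00435). Il1b stood at 291 and 41.4 FPKM with an adjusted p of 0.253 in limma. Of 19 immediate early genes 3 were called lower and 0 higher in each exposure, namely Egr1, Egr3 and Ier2, and without replicate 2 of every group 0 were called in either. Fos had 414 and 705 FPKM in FA (adjusted p = 0.485 in limma) and Junb 608 and 417 FPKM (adjusted p = 0.310). The inflammatory list was drawn up with such changes in these libraries already known, so its direction is no independent evidence.

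**Figure D5:**
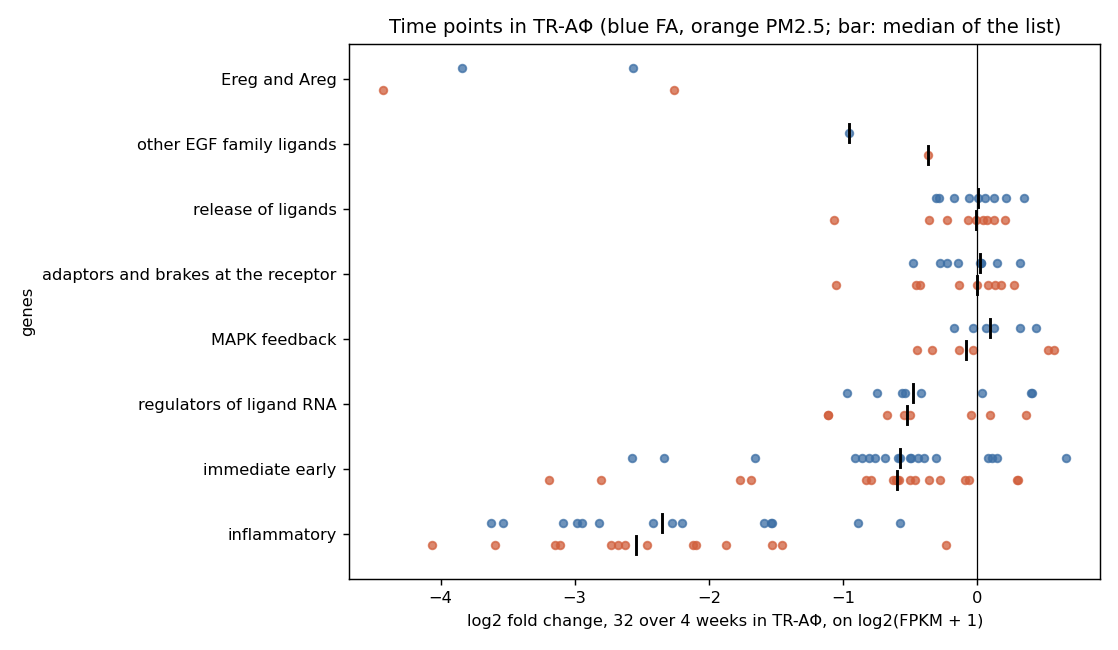
Log2 fold changes between time points in TR-AΦ (32-weeks over 4-weeks) for Ereg and Areg and for each list of genes, with FA in blue, PM2.5 in orange, a point per gene above the filter and a black bar at the list median. Release genes, adaptors and brakes at the receptor, and MAPK feedback genes centre near 0. Medians in FA and PM2.5 lie at -0.48 and -0.52 for regulators of ligand RNA and at -0.57 and -0.60 for immediate early genes. The inflammatory medians lie at -2.35 in FA and -2.54 in PM2.5.

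In monocytes between the time points, 9 of the 14 inflammatory genes were called lower and 0 higher in limma, and 3 of 19 immediate early genes were called lower and 0 higher, where 7.83% of all genes were lower. These counts were 10 and 2 without replicate 2 of every group. Since the inflammatory list was drawn up with earlier results of these libraries known, its direction is no independent evidence here either. Of the 9 release genes, Adam15, Adam19 and Rhbdf1 were called higher and Rhbdf2 and Frmd8 lower, beside 7.06% and 7.83% of all genes. Without replicate 2 of every group 2 were called higher and 0 lower. Rhbdf2 encodes iRhom2, which carries ADAM17 to the cell surface in myeloid cells, and Frmd8 encodes a partner of the iRhoms. Limma called lower 1 of 8 MAPK feedback genes, 3 of 8 regulators of ligand RNA (Atf4, Zc3h12a and Zfp36) and 0 of 9 adaptors and brakes, and 0 higher in each. The counts of 1 and 0 are near the 7.83% of all genes called lower. Without replicate 2 of every group the counts were 1, 2 and 0. Dusp5, an ERK phosphatase and the only MAPK feedback gene called, had 276 FPKM at 4-weeks and 121 FPKM in monocytes 2 of 32-weeks (adjusted p = 0.00253 in limma). Zfp36 had 2678 and 1548 FPKM (adjusted p = 0.00445) and Atf4, a stress-response transcription factor, 304 and 157 FPKM (adjusted p = 0.00011).

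The genes whose levels were most like those of Ereg over the 36 libraries were Gm13571, Gm37354, Slc25a25, Nck1 and Gm14221, with Pearson's r of log2(FPKM + 1) from 0.90 to 0.96 among 13307 genes. Areg stood at rank 220 for Ereg with r = 0.81, and Ereg at rank 13 for Areg. Over the 18 AΦ libraries, where the absence from monocytes plays no part, the closest genes to Ereg were Tnfaip3, Cxcl1, Nfkbiz, Cxcl2 and Icam1, with r from 0.97 to 0.98, and Areg came next at rank 6 of 12665. For Areg over 36 libraries they were Phlda1, Il1a, Il1rn, Dnajb9 and Tnf, with r from 0.84 to 0.89. Tnf, as an example, had a mean of 568 FPKM in 4-weeks TR-AΦ, 62.6 FPKM in 32-weeks AΦ and 108 FPKM in monocytes. These lists are descriptive, since the libraries share cell type and time point, and they changed with the measure of likeness. By Spearman's rho of FPKM 1 of the 5 genes most like Ereg over 36 libraries was shared, and 2 of the 5 over the AΦ libraries.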

How the data were processed

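RNA of sorted lung cells had been made into libraries with a SMART-Seq Stranded kit. Per the study's methods the authors trimmed reads with TrimGalore, aligned them to mm10 with STAR guided by GENCODE, and computed FPKM with Cufflinks. The submitters' processing notes name STAR, Cufflinks and Cuffdiff. The deposited FPKM table holds 1 column per library, fragment depth was not used, and precision rests on the 3 libraries per group. Replicates are separate mice per the study's methods. Here limma 3.58.1 (R 4.3.3) was run on log2(FPKM + 1) with a variance trend, genes of a mean of at least 1 FPKM, 1 mean per group and Benjamini-Hochberg adjustment over all genes of a comparison (threshold 0.05). AΦ comparisons were fitted on 18 libraries, monocyte comparisons on 18 and comparisons across cell types on 36. Fold changes on this scale understate changes of low genes. Exact permutation tests (scipy 1.17.1, two-sided) were run per member, 42 in all. The fit was tested on simulated data. The members and gene lists were chosen with earlier results of these data known. Named genes were the 4 members, the EGF family, the 3 highest genes of each role and the 5 genes most correlated with Ereg and Areg. Other genes of a list are named as called in a count, and Plet1, Siglecf, Pparg, Fabp4, Ear2, Cdh5, Pecam1, Adam15, Adam19, Rhbdf1, Rhbdf2, Frmd8 and Eldr were named after their values were seen. Promoter letters came from RefSeq tables, in which 2 of the 4 members matched, and gene positions from GENCODE vM21. Alternatives were another pseudocount, no filter, quantile normalization, only the groups compared, a replicate block and leaving out libraries.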

Additional observations from a re-analysis of the deposited data

How the results depend on the processing

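Of 701 recomputed values for 48 results, 672 were labelled unchanged, by a rule that differed with the kind of result. A tested member had to keep its direction and its side of the threshold. An untested level had to keep its direction and move by less than the SD within groups. A count of called members had to stay similar, and a list of similar genes had to share most genes. The 672 include values never called and contrasts given here with no test. No called value reversed. With no filter on low values, Tgfa entered the tests and the members called rose to 2 in monocytes 2 against 4-weeks monocytes and to 1 in monocytes 1 against monocytes 2. The added Tgfa calls set monocytes 2 against libraries at or near 0 and are not read as tests. With single libraries left out, 1 to 2 members were called in monocytes 2 against 4-weeks monocytes, with Hbegf as the added call without replicate 0 of the 4-weeks FA monocytes. With a pseudocount of 0.1 the log2 difference of Ereg between 4-weeks TR-AΦ and monocytes was 10.1.

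Directions turned only for members that were not called. Leaving out each library in turn, the PM2.5 differences ranged from -0.45 to 0.59 for Ereg in TR-AΦ of 4-weeks and from -0.99 to 0.11 in TR-AΦ of 32-weeks. For Areg they ranged from -0.38 to 0.43 in TR-AΦ of 32-weeks, from -0.54 to 0.0043 in BM-AΦ and from -0.12 to 0.36 in 4-weeks monocytes, and for Hbegf in the last from -0.056 to 0.81. The interaction ranged from -1.14 to 0.016 for Ereg and from -0.16 to 0.66 for Areg, and Areg in monocytes 1 against monocytes 2 from -0.29 to 0.14. Without replicate 2 of every group, PM2.5 differences of Ereg were -0.0082 and 0.083 in TR-AΦ at 4-weeks and 32-weeks, their interaction 0.091, and that of Areg in monocytes 1 was 0.15. The cause was not tested.

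Per the paper, 3 mice of each exposure and time were selected for sequencing, so libraries of different cells likely share mice. The main tests between cell types and between CD45 alleles treated these libraries as independent. The labels do not say that replicate numbers mark shared mice, and the main fits did not pair libraries by number. Between FA and PM2.5 libraries of the same cells and time, 4 of 18 same-numbered pairs had a correlation of deviations above 0.1 (median 0.071), against 1 of 36 different-numbered pairs (median -0.028). Between different cells of the same time and exposure these were 2 of 42 (median 0.037) and 1 of 84 (median -0.021). FA and PM2.5 libraries come from different mice, and what same-numbered libraries share was not tested. The data hold hints that a number is shared: 18 of 24 libraries of 32-weeks deviated most like the same-numbered library of the other CD45 allele, the AΦ marker sum was highest in replicate 2 in 11 of 12 groups, and Areg was higher in BM-AΦ than in TR-AΦ in 6 of 6 same-numbered pairs (Ereg in 4 of 6). With the replicate block within time and exposure the adjusted p of that Areg difference was 0.136 in limma, and of Ereg 0.472. A fit with the replicate block changed no call, and with it the Areg change of monocytes 2 against 4-weeks monocytes was -1.79 with an adjusted p of 0.00128 in limma. Counts of called genes over all alternatives ranged from 15 to 197 between time points in TR-AΦ in FA (99 in the report) and 18 to 381 in PM2.5 (133), from 1020 to 2644 in monocytes (1914), from 15 to 85 between BM-AΦ and TR-AΦ (40), from 34 to 152 between monocytes 1 and 2 (86), and up to 11 in the PM2.5 comparisons. The depth of the libraries was not used, which limits what can be said of Tgfa, Egfr and the Ereg values of monocytes.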

Other observations

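Eldr, a non-coding RNA gene next to Egfr on chromosome 11 (GRCm38, chr11:16935154-16951282, minus strand), was examined after its values were seen. It had 6.95 to 39.0 FPKM (median 19.3) in 4-weeks TR-AΦ and 1.91 to 5.32 FPKM (median 3.14) in TR-AΦ of 32-weeks, with no overlap. Within an exposure, 15.6% of all genes in FA and 18.3% in PM2.5 did not overlap between these time points. The share with both exposures pooled was not computed. Monocytes of 4-weeks had 1.82 to 37.8 FPKM (median 25.3) and monocytes 2 of 32-weeks 0.388 to 3.74 FPKM (median 2.07), with overlapping ranges. In each of the 4 groups of 4-weeks the lowest Eldr value was that of replicate 2, at 6.95 and 14.8 FPKM in TR-AΦ and at 1.996 and 1.82 FPKM in monocytes, whereas Ereg in TR-AΦ was highest in replicate 2. Egfr itself was at 0 to 0.307 FPKM in TR-AΦ of 4-weeks.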
